A study of Mus musculus with 6 samples.

Results

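The Serpina1 and Serpina3 protease inhibitors were followed in fibrotic mouse liver after treatment with alendronate nanogels. They are 10 genes out of the 41388 gene identifiers in the count table, taken as the identifiers that map to Serpina1a, Serpina1b, Serpina1c, Serpina1d, Serpina1e, Serpina3c, Serpina3g, Serpina3k, Serpina3m and Serpina3n. All 10 had enough counts to be tested. The AL/NP group held 3 liver libraries from BALB/c mice that were given carbon tetrachloride (CCl4, a liver toxin) for 5 weeks and that received, in its final 2 weeks, nanogels loaded with the bisphosphonate alendronate at 4 mg/kg, injected 2 times a week. The sample titles call this dose high. The control group held 3 liver libraries from BALB/c mice with the same 5 weeks of CCl4, labelled untreated. Both groups therefore carry CCl4 injury. Healthy liver, empty nanogels and free alendronate were not analysed here, so the drug and its carrier cannot be told apart. The age and sex of the mice are not given in the sources used here. The labels number the replicates without saying that each is a separate animal, so p-values measure the spread between these samples.

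Serpins are protease inhibitors that work once. A protease cuts the exposed reactive centre loop of the serpin, the loop folds into the body of the inhibitor, and the protease is dragged along and left distorted. Human SERPINA1 makes alpha-1 antitrypsin, the main plasma inhibitor of neutrophil elastase, and human SERPINA3 makes alpha-1 antichymotrypsin, an inhibitor of chymotrypsin-like proteases such as cathepsin G. Hepatocytes secrete both, and both belong to the acute phase response, the change in liver secretion during inflammation. In the mouse each human gene is matched by a cluster of copies, and the number of Serpina1 copies differs between mouse strains.

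The copies of Serpina1 are close to identical outside the reactive centre loop, and the loop is what sets the target of each. The coding sequences of Serpina1a to Serpina1e were 96.3 to 98.5% identical over their 10 pairs in the GRCm38 reference genome. The 66 loop bases, from the hinge to the codon before the conserved strand that follows, held 15 positions at which at least one of the 5 copies differs, printed in capitals. Averaged over pairs, 12.1 of 100 loop bases differed, against 2.75 of 100 coding bases outside the loop. The loops are printed because the 5 copies differed more per base there than in the rest of their coding sequence. Whether reads are more easily told apart there was not tested.
Serpina1a (chr12:103853765-103853830, minus strand): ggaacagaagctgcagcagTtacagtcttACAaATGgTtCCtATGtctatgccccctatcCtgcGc
Serpina1b (chr12:103728332-103728397, minus strand): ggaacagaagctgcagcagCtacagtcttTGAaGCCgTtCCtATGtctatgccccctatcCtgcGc
Serpina1c (chr12:103895102-103895167, minus strand): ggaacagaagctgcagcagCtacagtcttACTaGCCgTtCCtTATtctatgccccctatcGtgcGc
Serpina1d (chr12:103763770-103763835, minus strand): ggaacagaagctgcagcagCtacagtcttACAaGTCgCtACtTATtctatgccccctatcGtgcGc
Serpina1e (chr12:103947108-103947173, minus strand): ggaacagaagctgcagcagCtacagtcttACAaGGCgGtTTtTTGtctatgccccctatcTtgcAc

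Serpina1a and Serpina1c, the 2 copies whose coding sequences were closest, differed at 9 of the loop bases and at 10 coding bases elsewhere. The fewest loop differences lay between Serpina1c and Serpina1d, at 4 bases. The reference genome comes from the C57BL/6J strain and the mice were BALB/c, so the letters are those of the reference and not of the animals.

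The Serpina3 copies were less alike, with coding sequences 80.8 to 91.8% identical over their 10 pairs, and 58.4 to 62.7% identical to those of Serpina1. These values count aligned bases only. The Serpina3g transcript used has 744 coding bases and aligned with the other genes over 632 to 648 bases, and its pairs gave the 80.8% and the 62.7%. Their loops below have capitals for the bases after the 8 hinge codons, the stretch that meets the protease. The hinge in small letters is nearly shared, while the capitals differ in both letters and length.
Serpina3c (chr12:104147322-104147387, minus strand): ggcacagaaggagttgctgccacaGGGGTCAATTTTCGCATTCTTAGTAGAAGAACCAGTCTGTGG
Serpina3g (chr12:104241072-104241146, plus strand): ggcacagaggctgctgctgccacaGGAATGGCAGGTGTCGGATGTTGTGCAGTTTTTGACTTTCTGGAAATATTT
Serpina3k (chr12:104345269-104345337, plus strand): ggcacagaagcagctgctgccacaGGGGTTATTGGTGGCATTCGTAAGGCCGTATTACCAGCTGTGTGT
Serpina3m (chr12:104393769-104393843, plus strand): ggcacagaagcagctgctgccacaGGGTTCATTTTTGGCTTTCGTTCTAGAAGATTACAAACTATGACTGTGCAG
Serpina3n (chr12:104413448-104413522, plus strand): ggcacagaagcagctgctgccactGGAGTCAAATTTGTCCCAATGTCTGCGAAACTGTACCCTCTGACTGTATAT

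All 5 Serpina1 genes lie on the minus strand of chromosome 12 and all are protein coding. On GRCm38 the annotated genes run from 103853589 to 103863562 for Serpina1a, 103728156 to 103830373 for Serpina1b, 103894926 to 103904887 for Serpina1c, 103763594 to 103773592 for Serpina1d and 103946931 to 103958975 for Serpina1e. Further along the chromosome lie Serpina3c on the minus strand at 104146382 to 104153870 and, on the plus strand, Serpina3g at 104236245 to 104241939, Serpina3k at 104338486 to 104346144, Serpina3m at 104338486 to 104394257 and Serpina3n at 104406729 to 104414329. Serpina3k and Serpina3m are annotated with the same start and share 60 exon bases on the same strand. The printed loops lie in coding exons.

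The 6 libraries held between 30554483 and 39838428 counts, and 3 counts, the lowest level read as present, equalled 0.0753 to 0.0982 CPM (counts scaled to the library total). That floor covers counting error only, and the other CPM values given are TMM-scaled between libraries. Albumin and the other 12 tested hepatocyte markers were present in all libraries. The hepatocyte markers summed to between 51777 and 60928 CPM with AL/NP and between 63612 and 83635 CPM in controls. Macrophage markers summed to 630.6 to 948.3 CPM against 320.8 to 457.0 CPM, and neutrophil markers to 34.97 to 74.7 CPM against 19.0 to 34.0 CPM. In whole liver, more cells of a type and more RNA per cell cannot be told apart, and the part of these markers in the results that follow was not tested. Control replicate 3 stood apart, with 26.7% of its counts from mitochondrially encoded genes, against 11.96 to 19.8% in the other 5 libraries, and with the lowest scaling factor, 0.809, against 0.937 to 1.13. The fold changes of Serpina1e, Serpina3c, Serpina3g, Serpina3k, Serpina3m and Serpina6 are given with and without it.

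All 10 genes had a higher mean with AL/NP than in controls, where 50% of all genes tested had a log2 fold change above 0, and none passed the test across all genes. EdgeR's quasi-likelihood test with Benjamini-Hochberg adjustment over 15939 genes called 0 of the 10 at an adjusted p of 0.05, and called 13 genes in the whole table, a share of 0.0816%. The members' adjusted p-values lay between 0.118 and 0.351. Without adjustment, 7 of the 10 had an edgeR p under 0.05 and a higher level with AL/NP, where 9.37% of all genes tested did. In 9 of the 10 every AL/NP library lay above every control library, where 14.5% of all genes did so, and 16.9% of the 9594 genes with at least the mean CPM of the lowest member. DESeq2 called 6 of the 10, namely Serpina1a, Serpina1c, Serpina1d, Serpina1e, Serpina3g and Serpina3n, while it called 2.65% of the genes it gave an adjusted p as higher. The median log2 fold change of the 10 was 0.80, and that of all genes tested was 0.00, but the 10 are not independent of each other, since copies share sequence and reads.

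**Figure D1:**
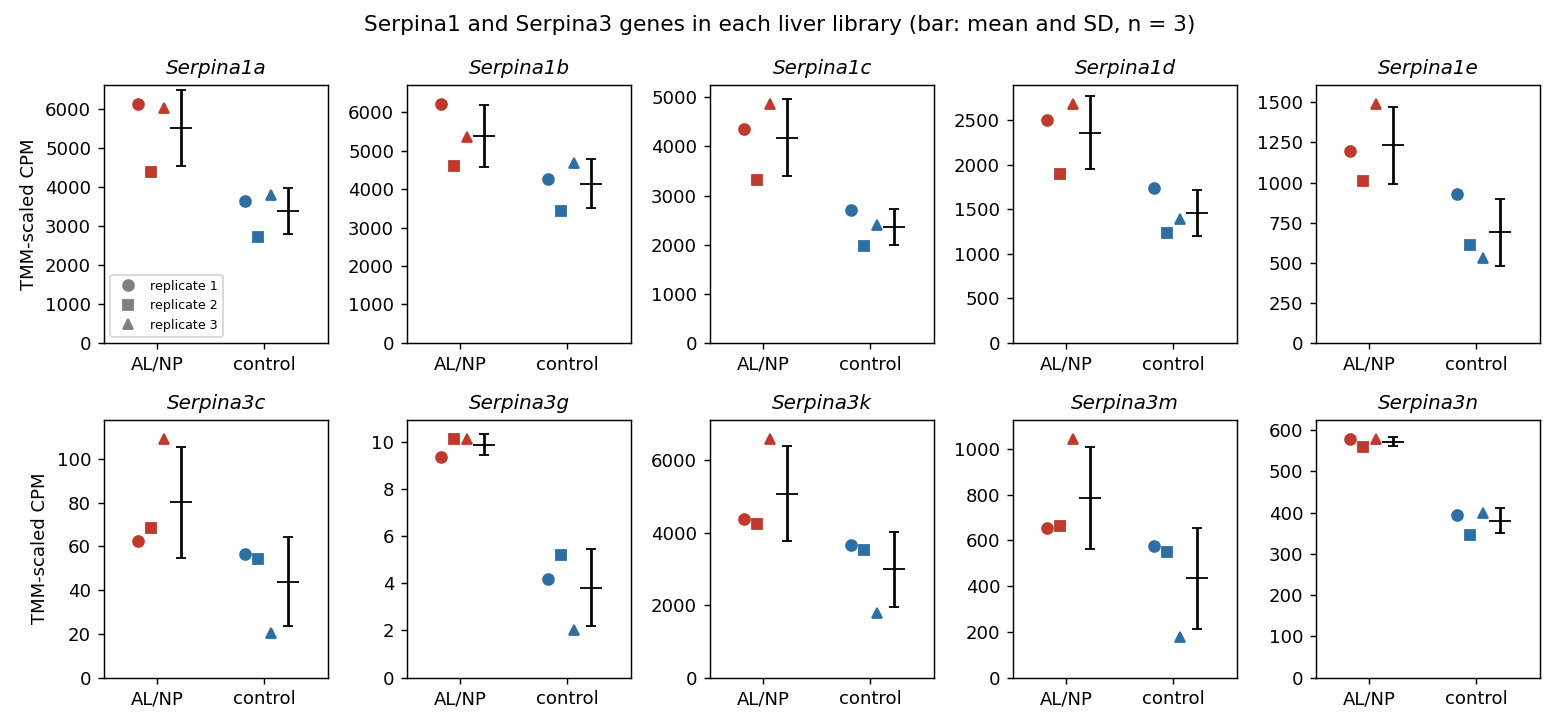
TMM-scaled CPM (vertical axes, each from 0) of the 10 genes in every library, AL/NP in red on the left and control in blue on the right of each panel; markers are the replicates and the bars give mean and SD of 3. AL/NP libraries lie above all controls in every panel but that of Serpina1b, and control replicate 3 is the lowest library for Serpina3c, Serpina3g, Serpina3k and Serpina3m.

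Per kilobase of exon, which allows levels to be set roughly side by side between genes, the 10 genes spanned a wide range. The length counts every annotated exon of a gene. It was 2415 bases for Serpina1b, whose transcript with the longest coding sequence has 1762, so the order of close genes depends on the length used. Serpina1c and Serpina1a were highest with AL/NP, at 3073 ± 580 and 3012 ± 538 CPM per kb (SD, n = 3 each), against 1731 ± 271 and 1849 ± 319 CPM per kb in controls. Serpina3k followed at 2468 ± 640 against 1454 ± 507 CPM per kb, and Serpina1b at 2229 ± 336 against 1712 ± 263 CPM per kb. Down to Serpina1b, neighbours in this order differed by less than the larger of their SDs in both groups. Without division by length, Serpina1b was the highest of the 10 in controls, at 4134 CPM against 3388 CPM for Serpina1a. Serpina1d had 1696 ± 296 against 1045 ± 186 CPM per kb, then Serpina1e with 762 ± 150 against 426 ± 129 CPM per kb. Serpina3m had 457 ± 130 against 253 ± 129 CPM per kb and Serpina3n had 277 ± 5.44 against 184 ± 14.4 CPM per kb, which in controls lay within the spread of Serpina3m. Serpina3c, at 36.2 ± 11.5 against 19.8 ± 9.22 CPM per kb, and Serpina3g, at 4.69 ± 0.213 against 1.81 ± 0.776 CPM per kb, stood far below the rest. Of 15827 genes ranked by mean level per length over all 6 libraries, Serpina1a was at rank 35 and Serpina3g at rank 7332.

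**Figure D2:**
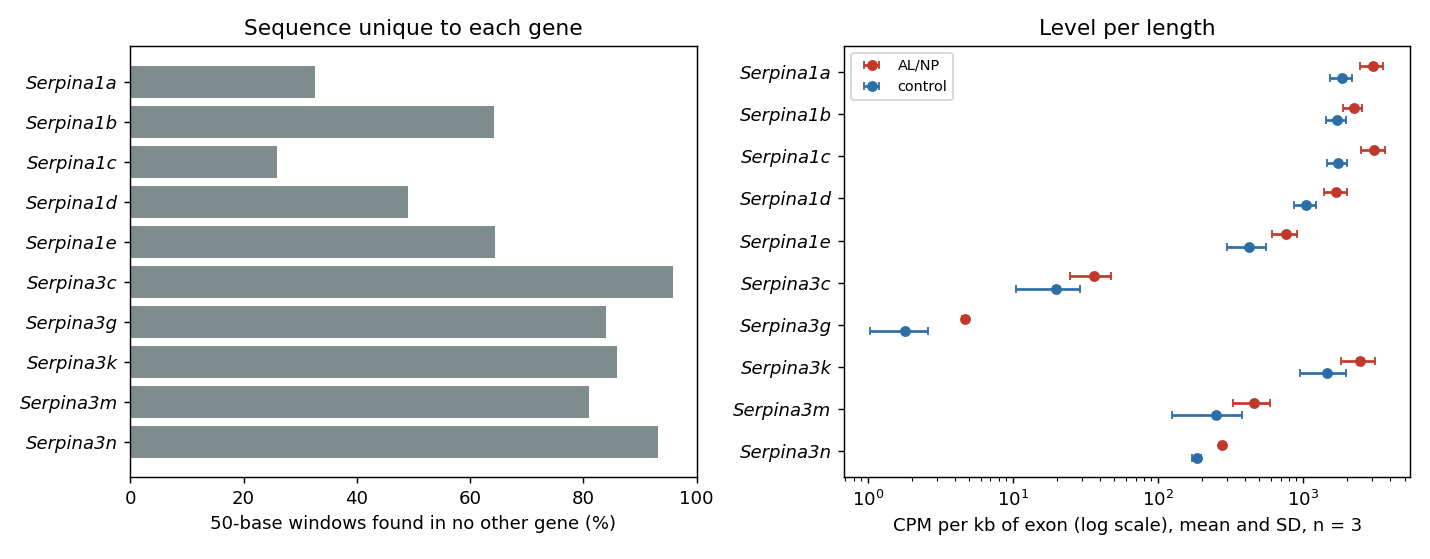
Left, the share of 50-base windows of each gene's transcript that occur in no other annotated gene (horizontal axis in %); right, the level in CPM per kb of exon on a log axis, AL/NP in red above control in blue, mean and SD of 3. Serpina1c has the least unique sequence, 25.8%, and Serpina3c the most, 95.7%; the highest levels belong to Serpina1 copies and Serpina3k.

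Serpina1a, Serpina1c, Serpina1d and Serpina1e, 4 of the alpha-1 antitrypsin copies, had higher levels in every AL/NP library than in any control, while Serpina1b overlapped. Serpina1a had 6133, 4382 and 6039 CPM with AL/NP, against 3647, 2719 and 3797 CPM in controls. Its highest control, replicate 3, lay below its lowest AL/NP library, replicate 2. The log2 fold change was 0.70 (SE 0.23), with an edgeR p of 0.0150 and an adjusted p of 0.179. Serpina1c had 4365, 3317 and 4864 CPM with AL/NP, against 2703, 1968 and 2398 CPM in controls, again without overlap and again with replicate 2 as the lowest library of each group. Its log2 fold change was 0.83 (SE 0.23), with an edgeR p of 0.00560 and an adjusted p of 0.144.

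Serpina1d had 2509, 1899 and 2684 CPM with AL/NP, against 1741, 1236 and 1393 CPM in controls. The groups did not overlap, and replicate 2 was the lowest of both groups. Its log2 fold change of 0.70 (SE 0.22) had an edgeR adjusted p of 0.166. Serpina1e, the copy with the lowest level of the 5, had 1194, 1010 and 1490 CPM with AL/NP, against 926, 613 and 530 CPM in controls. Here control replicate 3 was the lowest library, and the groups again did not overlap. Its log2 fold change was 0.84 (SE 0.25) with an edgeR adjusted p of 0.157, and 0.68 without control replicate 3.

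Serpina1b was the copy with the smallest difference. It had 6211, 4589 and 5347 CPM with AL/NP, against 4272, 3442 and 4689 CPM in controls. AL/NP replicate 2 lay below control replicate 3, so the groups overlapped. Its log2 fold change was 0.38 (SE 0.22), with an edgeR p of 0.119 and an adjusted p of 0.351, and DESeq2 gave an adjusted p of 0.261.

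Summed over the 5 copies, Serpina1 stood at 20412, 15197 and 20424 CPM with AL/NP, against 13289, 9978 and 12807 CPM in controls. The groups did not overlap, and the mean was 1.55-fold that of controls, at 18678 ± 3014 against 12025 ± 1789 CPM (SD, n = 3 each). Leaving out 1 library at a time put the log2 of this ratio between 0.51 and 0.76. Serpina1b made up 30.4, 30.2 and 26.2% of the sum with AL/NP, against 32.1, 34.5 and 36.6% in controls. Serpina1c made up 21.4, 21.8 and 23.8% with AL/NP, against 20.3, 19.7 and 18.7% in controls. Neither share overlapped between groups, Serpina1b being lower and Serpina1c higher with AL/NP, but the exact two-sided permutation p was 0.1 for each, the smallest that 3 against 3 allows, and 0.333 after Benjamini-Hochberg adjustment over the 10 shares computed. The shares of Serpina1a, Serpina1d and Serpina1e overlapped, with exact permutation p-values of 0.3, 0.6 and 0.5.

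How much of each copy's count is its own is limited by sequence. Of the 50-base windows of the Serpina1 transcripts, 50 bases being the read length given in the labels, 32.6% of Serpina1a, 64.2% of Serpina1b, 25.8% of Serpina1c, 49.1% of Serpina1d and 64.4% of Serpina1e occurred in no other annotated gene. Serpina1c shared 69.4% of its windows with Serpina1a, and Serpina1a shared 57.5% of its windows with Serpina1c. A read pair spans more than 1 window and can be unique where its windows are not. The pseudogene Gm8893, which lies within the annotated span of Serpina1b at 103817856 to 103822243 and was picked after its values were seen, shared 48.0% of its windows with Serpina1a. It had 37.8, 38.1 and 39.6 counts per 100 counts of Serpina1a with AL/NP, against 37.6, 38.3 and 36.7 in controls. This ratio was nearly constant over libraries. Nuclear copies of mitochondrial genes gave a further measure: Gm28661 had 100 to 100.1 counts per 100 of mt-Co2 in every library, so reads that match several places were kept in the table. Whether each was counted at 1 place or at all is not given in the sources used here, so the levels of single Serpina1 copies are uncertain and the sum may hold a read more than once.

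Serpina3k, Serpina3m and Serpina3c had like profiles over the libraries, with their extremes in 2 of them. Serpina3k, whose product is known as a kallikrein-binding inhibitor, had 4379, 4257 and 6596 CPM with AL/NP, against 3651, 3534 and 1788 CPM in controls. AL/NP replicate 3 was the highest library and control replicate 3 the lowest, and the other AL/NP libraries lay above the other controls. Its log2 fold change was 0.76 (SE 0.32), with an edgeR p of 0.0398 and an adjusted p of 0.236. Serpina3m had 653, 661 and 1044 CPM with AL/NP, against 576, 548 and 179 CPM in controls, and the same libraries were the highest and the lowest. Its log2 fold change was 0.86 (SE 0.41) with an edgeR adjusted p of 0.286. Serpina3c had 62.6, 68.5 and 109 CPM with AL/NP, against 56.7, 54.4 and 20.3 CPM in controls. The groups did not overlap, by the narrow gap between AL/NP replicate 1 and control replicate 1, and the log2 fold change was 0.87 (SE 0.38) with an edgeR adjusted p of 0.257.

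These 3 values shrink without control replicate 3. The log2 fold change was then 0.50 for Serpina3k, 0.48 for Serpina3m and 0.52 for Serpina3c, with edgeR adjusted p-values of 0.311, 0.311 and 0.297. Without AL/NP replicate 3 it was 0.53 for Serpina3k, 0.60 for Serpina3m and 0.58 for Serpina3c. Over the 6 libraries the Pearson correlation of log2 CPM was 0.988 to 0.996 among the 3 genes, a description of libraries that share their depth and scaling. These genes share little sequence by comparison with Serpina1: 86.0% of the windows of Serpina3k, 80.9% of those of Serpina3m and 95.7% of those of Serpina3c were unique, and Serpina3k and Serpina3m had 257 windows in common.

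**Figure D3:**
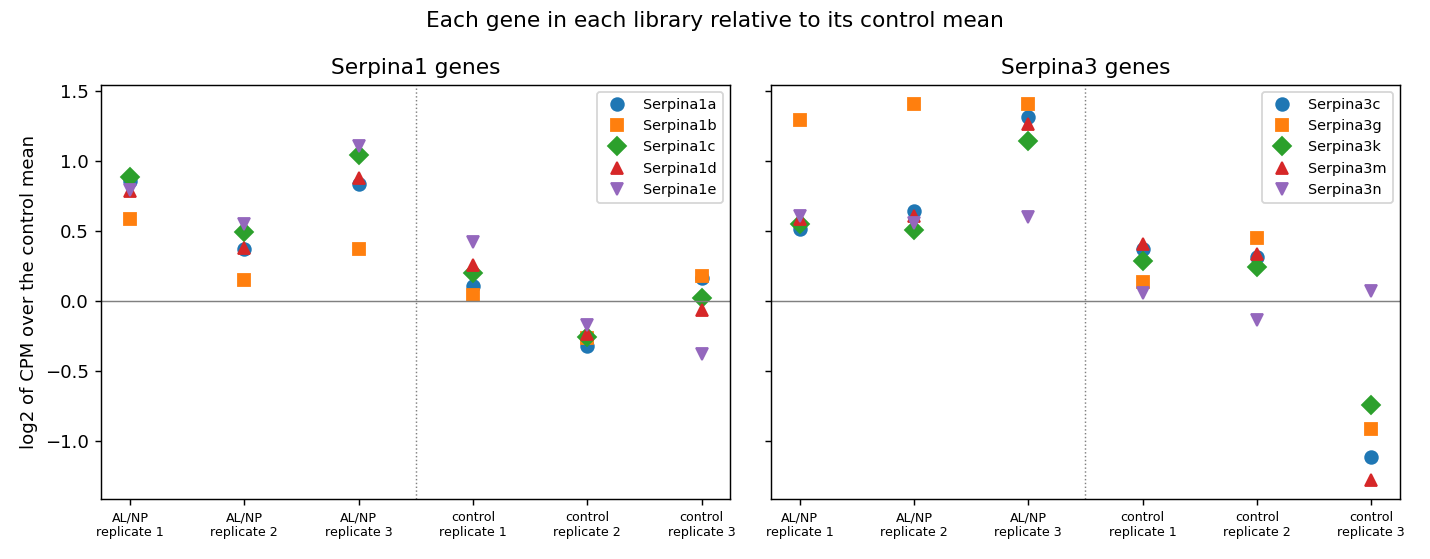
log2 of the CPM of each gene over its control mean (vertical axis) in each of the 6 libraries (horizontal axis), Serpina1 genes on the left and Serpina3 genes on the right. Serpina3c, Serpina3g, Serpina3k and Serpina3m are each lowest in control replicate 3, where Serpina1a, Serpina1b, Serpina1c and Serpina3n lie above their control means.

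Serpina3n, an acute phase protein that in the mouse inhibits granzyme B and neutrophil proteases, had the smallest SE of the 10. It had 579, 560 and 579 CPM with AL/NP, against 396, 347 and 400 CPM in controls. Control replicate 3, the lowest library for its neighbours, was the highest control here, and the gap between the groups was wider than the spread within either. The log2 fold change was 0.59 (SE 0.15), with an edgeR p of 0.00403 and an adjusted p of 0.135. DESeq2 gave it an adjusted p of 0.00581. With any 1 library left out the log2 fold change lay between 0.51 and 0.62, the narrowest range among the 10 genes. Its log2 levels over the 6 libraries correlated more closely with Serpina1c (0.941) and Serpina1a (0.927) than with Serpina3g (0.783), Serpina3c (0.577), Serpina3k (0.639) or Serpina3m (0.552), which again is a description of 6 libraries. Without control replicate 3 the correlation with Serpina3g was 0.924, near those with Serpina1c (0.934) and Serpina1a (0.933), while Serpina3c, Serpina3k and Serpina3m stood at 0.666, 0.732 and 0.687.

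Serpina3g, which in the mouse encodes an intracellular inhibitor found in activated leukocytes and able to block lysosomal cysteine cathepsins, had the lowest level and the highest fold change. It had 269, 368 and 349 counts with AL/NP, against 146, 189 and 65 counts in controls. As CPM these were 9.35, 10.1 and 10.1 with AL/NP, against 4.19, 5.22 and 2.02 in controls. Every AL/NP library was above every control, and control replicate 3 was the lowest. The log2 fold change was 1.37 (SE 0.31), with an edgeR p of 0.00181 and an adjusted p of 0.118, and DESeq2 gave an adjusted p of 0.00234. Without control replicate 3 the log2 fold change was 1.06, with an edgeR adjusted p of 0.0775. Of the leukocyte markers, 14 of 15 for macrophages and all 7 tested for neutrophils had a log2 fold change above 0, with medians of 1.01 and 1.30, and 6 of 11 tested for T, NK and B cells did. The last summed to 6.67 to 22.5 CPM with AL/NP, against 6.09 to 10.4 CPM in controls, so these groups overlapped. None of these markers was called by edgeR, and their part in the Serpina3g difference was not tested.

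The 5 Serpina3 members together stood at 5683, 5556 and 8339 CPM with AL/NP, against 4683, 4489 and 2389 CPM in controls. The mean was 1.69-fold that of controls, at 6526 ± 1571 against 3854 ± 1272 CPM (SD, n = 3 each), and the log2 of the ratio lay between 0.51 and 0.92 with 1 library left out. Serpina3k alone made up 74.8 to 79.1% of this sum in every library. Serpina3n made up 10.2, 10.1 and 6.94% with AL/NP, against 8.45, 7.72 and 16.8% in controls, so control replicate 3 differed from all other libraries in the make-up of the family as well as in its level. All 10 genes together took 2.44, 2.27 and 3.25% of the library with AL/NP, against 1.91, 1.45 and 1.23% in controls.

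**Figure D4:**
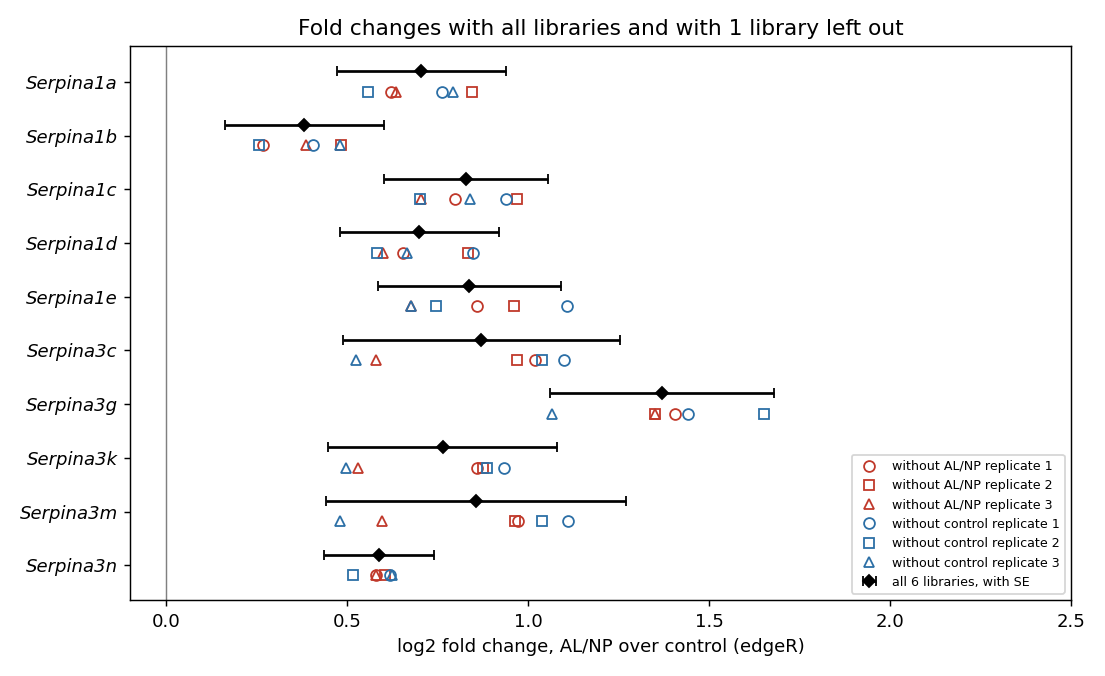
log2 fold change of AL/NP over control from edgeR (horizontal axis) for each gene, with all 6 libraries (black diamond with SE) and with 1 library left out (open markers). No value falls below 0; Serpina3n moves least, and Serpina3c, Serpina3k and Serpina3m are lowest without control replicate 3 or AL/NP replicate 3.

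The Serpina1 promoters are near copies of each other. RefSeq promoters on GRCm38.p6, 250 bases before the gene start, matched 8 of the 10 members, not Serpina3k and Serpina3m. Those of Serpina1 were 92.1 to 98.0% identical over their aligned bases, and those of Serpina3c and Serpina3n 92.7%, while Serpina3g and Serpina3n shared 69.3% over the 150 bases that aligned. Promoters are printed for Serpina3g and Serpina3n, the members with the highest fold change and the smallest SE. Capitals mark matches to the letters searched.
Serpina3g (chr12:104235897-104236146, plus strand): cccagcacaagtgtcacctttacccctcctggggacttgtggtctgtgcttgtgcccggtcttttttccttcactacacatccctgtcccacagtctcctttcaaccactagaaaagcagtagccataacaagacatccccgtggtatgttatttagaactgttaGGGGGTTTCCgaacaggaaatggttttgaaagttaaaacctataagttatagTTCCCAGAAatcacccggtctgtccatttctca
Serpina3n (chr12:104406458-104406707, plus strand): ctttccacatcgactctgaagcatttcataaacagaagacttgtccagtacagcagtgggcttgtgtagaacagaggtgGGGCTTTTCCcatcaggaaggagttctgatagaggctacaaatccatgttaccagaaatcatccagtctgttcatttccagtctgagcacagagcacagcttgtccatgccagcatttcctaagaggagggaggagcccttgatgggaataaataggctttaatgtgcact

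Both strands were searched for short motifs. TTGCNNAA, letters for the C/EBP factors of the acute phase, was in the promoters of Serpina1b, Serpina1d and Serpina1e and in 9.56% of 32851 mouse promoters of the same length. The letters GGG, any 3 bases and TTCC, for NF-kB, were in those of Serpina3g (as GGGGGTTTCC) and Serpina3n (as GGGCTTTTCC) and in 4.65% of all. TTCNNNGAA, letters for STAT factors, was in that of Serpina3g alone (as TTCCCAGAA) and in 7.02% of all, and GAAA, any 2 bases and GAAA, letters for interferon response factors, were in none of the 8 and in 2.98% of all. These are matches of letters in a window, and not evidence of binding.

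Other serpins of the same clade were mixed. Of 12 further clade A serpins tested, 8 had a log2 fold change above 0 and 4 below, edgeR called none, and 6 were higher and 2 lower at an unadjusted p under 0.05, where 10.3% of all genes tested were lower. Their median log2 fold change was 0.55. Serpina3i, Serpina3f and Serpina3h, more copies in the same cluster, had log2 fold changes of 1.07, 1.27 and 1.28 with edgeR adjusted p-values of 0.108, 0.147 and 0.154. Of its 1754 windows, Serpina3g shared 107, 117 and 152 with them in that order, so their counts and those of Serpina3g may hold the same reads. Control replicate 3 was the lowest library for Serpina3f and Serpina3h, at 1.24 and 1.03 CPM, and their fold changes without it are not given here. Serpina10, which inhibits coagulation factor X together with protein Z, had 0.57 with an adjusted p of 0.144. Serpina6, corticosteroid-binding globulin, had 15.1, 20.2 and 10.9 CPM with AL/NP, against 21.9, 20.2 and 144 CPM in controls, so its log2 fold change of -2.01 (edgeR adjusted p of 0.223) came with 1 high library, control replicate 3, in which 4 of the 5 Serpina3 members were lowest. Without that library the log2 fold change of Serpina6 was -0.45 (SE 0.24), with an edgeR adjusted p of 0.354.

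Among plasma serpins of other clades, 8 of 10 lay above 0 and 2 below, with a median of 0.25 and 1 at an edgeR p under 0.05. That was Serping1, the inhibitor of complement C1, at a log2 fold change of 0.63 (SE 0.16, adjusted p of 0.126 by edgeR). Serpinc1, antithrombin, had 0.19 with an edgeR adjusted p of 0.556. Of 6 intracellular clade B serpins, 5 lay above 0, and Serpinb9b had 0.556, 1.10 and 1.07 CPM with AL/NP against 0.115, 0.193 and 0.186 CPM in controls (edgeR adjusted p of 0.0909). Of 20 plasma protease inhibitors that are not serpins, 15 lay above 0 and 5 below with a median of 0.32. The acute phase gene Itih4 had a log2 fold change of 1.10 (SE 0.24, edgeR adjusted p of 0.108), and A2m had 20 counts summed over the AL/NP libraries, against 9 over the controls.

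The proteases that these serpins bind were mostly too low to test, with 10 tested of 22 that had a row. Of the 10, 8 lay above 0, with a median log2 fold change of 0.40, and edgeR called none. Neutrophil elastase, Elane, had 55 counts summed over the AL/NP libraries, against 11 over the controls, and cathepsin G, Ctsg, had 17 against 0. Prtn3, proteinase 3, had 0.556, 3.25 and 4.38 CPM with AL/NP, against 0.919, 0.663 and 0.466 CPM in controls, with overlapping groups and an edgeR adjusted p of 0.174. The cysteine cathepsin gene Ctsb had 729, 661 and 723 CPM with AL/NP, against 554, 547 and 467 CPM in controls, without overlap and with an edgeR adjusted p of 0.204.

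**Figure D5:**
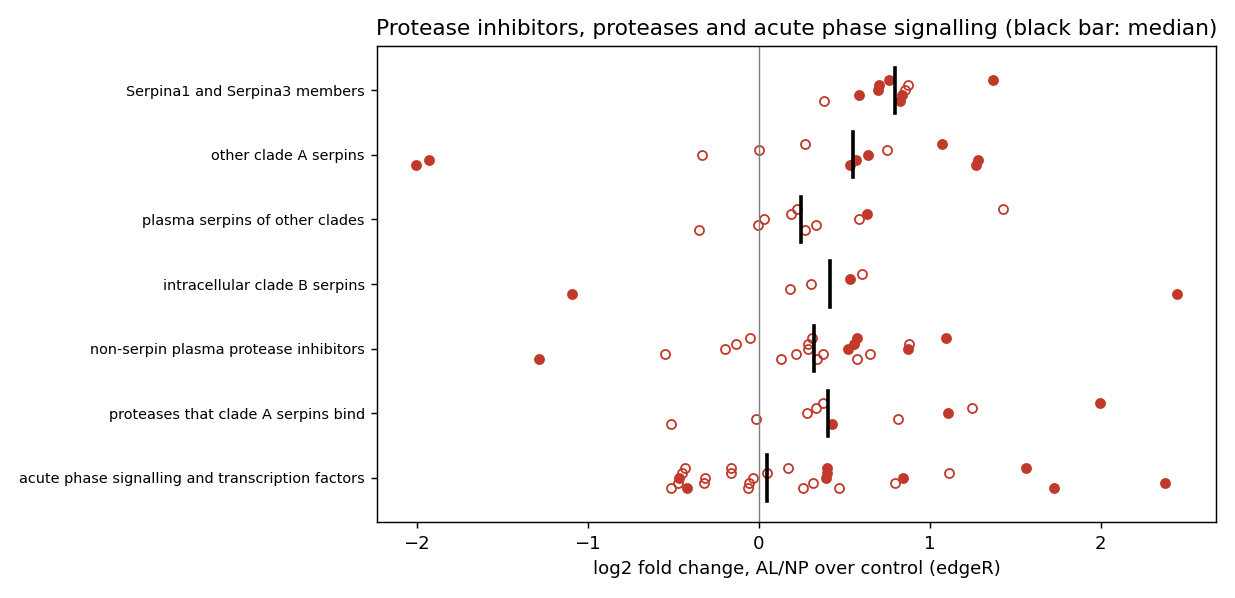
log2 fold change of AL/NP over control (edgeR, horizontal axis) of each tested gene in 7 lists (rows); filled points have an unadjusted p under 0.05 and black bars are medians. The Serpina1 and Serpina3 members all lie above 0 with a median of 0.80, and the acute phase signalling genes are spread on both sides with a median of 0.05.

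Genes of acute phase signalling, a list that mixes cytokines, receptors, kinases, transcription factors and Socs3, were split. Of 27 tested, 14 lay above 0 and 13 below, with a median log2 fold change of 0.05 and no edgeR call. The transcription factor gene Cebpd had a log2 fold change of 1.73 (SE 0.28, edgeR adjusted p of 0.0783), and Il1b had 1.56 (SE 0.27, edgeR adjusted p of 0.0839). Osm, oncostatin M, and its receptor gene Osmr had 2.38 and 0.84, with edgeR adjusted p-values of 0.0995 and 0.0970. The level of Osm was 0.417, 0.440 and 0.551 CPM with AL/NP, against 0.0862, 0.0552 and 0.124 CPM in controls. These control values lay near the floor of 3 counts, so the size of its fold change is uncertain. Il6 had 5 counts over the AL/NP libraries, against 1 over the controls. Stat3 had 0.40 with an edgeR adjusted p of 0.225, Cebpb 0.80 with 0.311, Socs3 0.32 with 0.734 and Il6ra -0.43 with 0.456. Of 26 interferon response genes, 16 lay above 0 and 10 below, with a median of 0.08, and Gbp2 had 1.63 (edgeR adjusted p of 0.103).

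Alpha-1 antitrypsin folds in the endoplasmic reticulum and leaves it in COPII vesicles. Of 25 genes of that route and of the disposal of misfolded copies, 16 lay above 0 and 9 below, with a median log2 fold change of 0.11. Sec24a, a COPII coat gene, had 29.8, 38.1 and 44.8 CPM with AL/NP, against 70.0, 65.3 and 78.3 CPM in controls, without overlap (log2 fold change of -0.92, edgeR adjusted p of 0.0970). Syvn1, a ubiquitin ligase of the disposal route, had 769, 276 and 365 CPM with AL/NP, against 177, 231 and 186 CPM in controls (edgeR adjusted p of 0.145). Other secreted hepatocyte products were mixed, with 10 of 17 above 0 and a median of 0.22. Hpx, hemopexin, had a log2 fold change of 1.10 (edgeR adjusted p of 0.0970), Ttr, transthyretin, had -0.82 (edgeR adjusted p of 0.140), and Alb had -0.23 (edgeR adjusted p of 0.602). Of the 13 hepatocyte markers, 11 lay below 0 with a median of -0.43, and 2 were lower at an unadjusted edgeR p under 0.05, where 10.3% of all genes tested were. Stellate cell markers lay above 0 in 3 of 10 cases, endothelial markers in 7 of 10 and cholangiocyte markers in 6 of 6 tested, with medians of -0.38, 0.13 and 0.59.

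Among 13703 genes with a mean of at least 1 CPM, those whose log2 level over the 6 libraries was most like that of Serpina3n were Gfpt2, S100a4 and Scpep1, with Pearson correlations of 0.994, 0.992 and 0.991. For Serpina3g they were Srp68, Mllt1 and Gm23374 (0.997, 0.997 and 0.992), and for the Serpina1 sum they were Gm8893, Rragc and Jdp2 (0.998, 0.993 and 0.991). These values describe 6 libraries only, and Gm8893 shares sequence with the Serpina1 copies.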

How the data were processed

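Poly(A)-selected liver RNA was sequenced with a strand-marking kit and read as 2 x 50 bases, per the labels. The deposited table held raw counts per Ensembl gene for the 6 libraries, which the authors made with STAR 2.6.1a and featureCounts on GRCm38, per the submitters' processing notes. These also name DESeq2 1.26.0. The strand setting and the handling of reads with several matches are not given in the sources used here. Of 41388 identifiers, 40254 matched a symbol. Groups were compared over all genes with edgeR 4.0.16 in R 4.3.3 (robust quasi-likelihood, TMM, filterByExpr with a minimum count of 10), adjusted by Benjamini-Hochberg, with a threshold of 0.05. The fit was tested on simulated data. SE is the log2 fold change over the root of F. Transcripts, exon lengths and coordinates came from GENCODE M21 and promoters from RefSeq, compared with Biopython 1.88. The Serpina members and all gene lists were chosen with earlier results of these data known. Named genes were all members, up to 4 of each list with the smallest p-values, a set given whatever their values, and the 3 most correlated genes for Serpina3n, Serpina3g and the Serpina1 sum; not all are printed. Alternatives were other scalings, filters, limma-voom 3.58.1, DESeq2 1.42.0, a replicate block, the fit without robust estimation, mitochondrially encoded genes left out and each library left out. Klkb1 and Tf were not analysed here. Some results that the naming rule and the motif search gave are not reported here.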

Additional observations from a re-analysis of the deposited data

How the results depend on the processing

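The number of genes called over the whole table depended on the setting more than any member's fold change did. It was 13 with the settings reported, 10 with limma-voom, 747 without a filter and 846 with DESeq2. It was 0 with library totals (2254 at an unadjusted p under 0.05), 0 with at least 50 counts in 3 libraries (2786) and 0 without robust estimation (3133). With 1 library left out it was 4 without control replicate 1, 3 without AL/NP replicate 1 and 0 for each of the other 4 libraries (2328 to 3022 at an unadjusted p under 0.05). Members called were 0 in the settings with edgeR on filtered genes and with limma-voom, 3 without a filter (Serpina1c, Serpina1e and Serpina3g, with edgeR adjusted p-values of 0.0192, 0.0169 and 0.000800) and 6 with DESeq2. The cause was not tested. Members at an unadjusted p under 0.05 numbered from 5 (AL/NP replicate 3 left out) to 9 (control replicate 1 left out, and also limma-voom and DESeq2 with all libraries). Over all genes, leaving out these libraries gave 2880 of 16251 and 2895 of 16294, in either direction. Limma-voom gave 3152 of 15939 and DESeq2 3342 of 29551. Members whose groups did not overlap numbered from 8 with library totals to 10 (control replicate 3 left out). The share of all genes without overlap was not computed for these settings, and groups with fewer libraries separate more easily. As shares of the library total, AL/NP replicate 1 lay below control replicate 1 for Serpina3m (0.0611 against 0.0614%) and Serpina3c (0.00586 against 0.00604%). Both therefore overlapped with library totals. Serpina1b did not, with 0.501% in its lowest AL/NP library and 0.455% in its highest control. All 10 members had a log2 fold change above 0 in all 16 settings run. Library totals moved the median of all genes to 0.13, and the lowest member, Serpina1b, was then at 0.52. With each library left out in turn, Socs3, which was not called, had log2 fold changes of -0.0737 to 0.72, with values below 0 when control replicate 3 or (at -0.0087) AL/NP replicate 2 was left out. Il6ra, also not called, lay between -0.65 and 0.0040, above 0 without control replicate 2. Depth limits Elane, Ctsg, A2m and Il6, whose counts were too low to test.

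The replicate numbers showed no strong pairing of the libraries. Same-numbered libraries had correlations of -0.05, 0.04 and 0.08 of their deviations from the group means, and not every library correlated best with its own number. Such correlations cannot exclude a weak pairing. With the replicate number as a block, 23 genes were called and 0 members were called. An edgeR p under 0.05 was then found for 6 members and for 3129 of 15939 genes tested, in either direction.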
